A study of Mus musculus with 30 samples.

Results

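The membrane Adam proteases described here are the 6 genes Adam9, Adam10, Adam12, Adam15, Adam17 and Adam19, chosen by name from the 35973 genes of the deposited RNA tables of mouse tail-tendon fibroblasts. They were picked with results of these RNA contrasts and site lists already known, so their changes are a description and not a test of the family. All 6 passed the filter on low counts (a mean of 10 or more normalised counts), and the chromatin site lists held 12 entries annotated to them out of 16367.

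ADAM proteins are single-pass membrane metalloproteinases that cut the outer part off other membrane proteins, a step called ectodomain shedding. The protease is made as an inactive precursor, a furin-type convertase removes its prodomain in the secretory pathway, and TIMP proteins can block the mature enzyme. ADAM10 and ADAM17 are the sheddases best known for releasing Notch receptors, EGF-receptor ligands and TNF, and fibroblasts carry out shedding at their surface as part of matrix turnover and growth factor signalling.

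The cells were primary fibroblasts from tail tendon, of wildtype genotype in every group, kept in medium with 0.1% serum during treatment. RNA was measured by poly(A) sequencing in 3 groups of 3 libraries: the solvent DMSO, blebbistatin at 10 µM, which blocks non-muscle myosin II, and Y27632 at 30 µM, a kinase inhibitor that lowers contractility. Accessible chromatin was measured by ATAC sequencing under the same 3 treatments, 9 libraries in all, and 12 more genomic DNA libraries, 3 per group, had neither drug (labelled DMSO), blebbistatin at 10 µM, doxycycline at 10 ng/mL, or both; the labels do not say what doxycycline induced, and age, treatment time and passage are not given in the sources used here. By its title, the series is about how cell mechanics, through Yap and Taz, sets the upkeep of the matrix. The RNA libraries held 23375386 to 37061737 reads in genes, and the 10 tendon fibroblast markers, which include Scx, Tnmd and Col1a1, summed to 27300 to 32200 CPM (counts scaled to a fixed library total) with none at 0. That sum was mostly the collagen genes Col1a1, Col1a2 and Col3a1. In DMSO, scaled with the blebbistatin libraries, these averaged 284615, 235763 and 230534 normalised counts, against 903 for Tnmd and 63.9 for Scx. Nothing in the labels says that the 3 libraries of a group came from separate animals or cultures, so the spread between them may be technical.

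The 6 genes lie on 6 chromosomes of the GRCm38.p6 (mm10) build: Adam9 at chr8:24949611-25017040, Adam10 at chr9:70678944-70780229, Adam12 at chr7:133883199-134225097, Adam15 at chr3:89339640-89350028, Adam17 at chr12:21323509-21373632 and Adam19 at chr11:46054502-46147347. RefSeq windows of 300 bases around the annotated starts matched 4 of the 6, Adam10, Adam15, Adam17 and Adam19. The windows of Adam10, Adam15 and Adam17 had 73.3%, 65.3% and 70% G and C with 32, 25 and 30 CpG pairs, against a median of 52.7% and 7 pairs over all 32851 windows. Adam19 had 3 windows, at 49.3%, 60.3% and 57% G and C with 5, 11 and 5 CpG pairs. Both strands of each window were searched for GGAATG, a TEAD core, and TGANTCA, an AP-1 motif; 14.7% and 7.81% of all windows held them. Of the windows matched here, the second of Adam19 held 1 of each, and these matches do not overlap. The window of Adam17 is shown as the start of a gene that rose under both inhibitors with no listed site annotated to it, as was the case for Adam15 too, and 2 windows of Adam19 because a listed site lies between them; capitals mark the motif letters as they read on the printed strand.
Adam17 window, chr12:21373583-21373882, minus strand: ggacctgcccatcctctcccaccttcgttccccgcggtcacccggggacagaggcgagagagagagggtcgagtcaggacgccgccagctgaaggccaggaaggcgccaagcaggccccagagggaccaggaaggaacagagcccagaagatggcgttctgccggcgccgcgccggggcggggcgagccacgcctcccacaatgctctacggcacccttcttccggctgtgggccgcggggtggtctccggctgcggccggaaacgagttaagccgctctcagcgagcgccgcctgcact
Adam19 window, chr11:46054252-46054551, plus strand: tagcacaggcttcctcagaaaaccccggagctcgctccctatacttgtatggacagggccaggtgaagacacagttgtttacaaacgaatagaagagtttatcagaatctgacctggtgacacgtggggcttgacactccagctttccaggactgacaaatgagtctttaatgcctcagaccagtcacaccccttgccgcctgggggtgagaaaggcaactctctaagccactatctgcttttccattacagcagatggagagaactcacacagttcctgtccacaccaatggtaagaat
Adam19 window, chr11:46055734-46056033, plus strand: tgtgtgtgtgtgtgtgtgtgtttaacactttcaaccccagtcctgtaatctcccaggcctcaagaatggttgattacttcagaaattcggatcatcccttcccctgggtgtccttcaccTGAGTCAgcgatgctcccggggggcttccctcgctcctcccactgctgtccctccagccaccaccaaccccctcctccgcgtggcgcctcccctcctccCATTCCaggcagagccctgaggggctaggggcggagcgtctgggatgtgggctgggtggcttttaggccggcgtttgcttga

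Blebbistatin raised Adam12, Adam17 and Adam15 and lowered Adam19, Adam9 and Adam10. Y27632 raised Adam12, Adam17 and Adam15 and lowered Adam9. Adam12 moved most of the 6 in each contrast with DMSO, 3.63-fold under blebbistatin and 2.3-fold under Y27632. Under blebbistatin limma called 6 of 6 members (3 of them higher; a call is an adjusted p below 0.05), where 53% of all 14882 genes tested were called, 26.1% as higher and 26.9% as lower. Under Y27632 it called 4 of 6 (3 higher and 1 lower), where 35.9% of 14833 genes were called, 18.1% as higher and 17.8% as lower. Libraries of the groups did not overlap for 6 of 6 members under blebbistatin (60.2% of all genes), 4 of 6 under Y27632 (48.1%) and 5 of 6 between the inhibitors (60.1%). The 2 contrasts with DMSO share the DMSO libraries. Levels below are in CPM of the 9 libraries scaled together and are not comparable between genes, because they are not divided by transcript length; log2 changes against DMSO are of log2(normalised count + 1), with the standard error (SE) over n = 3 libraries per group. In bulk RNA, fewer cells of a type and less RNA per cell cannot be told apart.

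Adam12, known as meltrin alpha, is a sheddase with roles in muscle and mesenchymal cells and is reported at invadopodia, the actin-rich protrusions that degrade matrix. Its level was 50.1, 49.2 and 48.3 CPM in the 3 DMSO libraries, 111, 111 and 118 with Y27632, and 172, 182 and 183 with blebbistatin. The 3 groups formed separate steps, with every Y27632 library above every DMSO library and every blebbistatin library above both. The log2 change was 1.86 (SE 0.037) with blebbistatin and 1.20 (SE 0.038) with Y27632. That placed Adam12 at rank 120 from the highest of 14882 genes under blebbistatin and at rank 111 of 14833 under Y27632. Scaled together, blebbistatin exceeded Y27632 by 0.67 (95% interval 0.60 to 0.75). These values rested on 1114 to 5831 reads per library.

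Adam17, also called TACE, releases TNF and several EGF-receptor ligands. It stood at 129, 130 and 125 CPM in DMSO, 158, 145 and 149 with Y27632, and 205, 202 and 211 with blebbistatin. Again the 3 groups did not overlap and blebbistatin was the highest. The log2 change was 0.68 (SE 0.033) with blebbistatin, 1.61-fold, and 0.23 (SE 0.036) with Y27632, 1.18-fold. The difference between the inhibitors was 0.46 (95% interval 0.39 to 0.54).

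Adam15, or metargidin, is a membrane protease of many adherent cell types. Its levels were 187, 184 and 187 CPM in DMSO, 208, 213 and 216 with Y27632, and 210, 216 and 199 with blebbistatin. Both inhibitor groups lay above DMSO and overlapped each other. The log2 change was 0.16 (SE 0.034) with blebbistatin and 0.19 (SE 0.030) with Y27632, and their difference was -0.01 (95% interval -0.08 to 0.05).

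Adam19, meltrin beta, is known for shedding neuregulin. The DMSO libraries had 277, 279 and 271 CPM, the Y27632 libraries 285, 287 and 277, and the blebbistatin libraries 214, 211 and 207. Blebbistatin stood below the other groups in each library, and Y27632 overlapped DMSO. Its log2 change was -0.39 (SE 0.030) with blebbistatin and 0.04 (95% interval -0.03 to 0.10) with Y27632. Between the inhibitors it was -0.41 (95% interval -0.47 to -0.35).

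Adam9, meltrin gamma, is a broadly expressed sheddase. It measured 548, 573 and 573 CPM in DMSO, 520, 500 and 501 with Y27632, and 478, 469 and 488 with blebbistatin. The 3 groups were ordered without overlap, DMSO highest. Adam9 changed by -0.24 (SE 0.032) with blebbistatin and by -0.16 (SE 0.030) with Y27632. The difference between the inhibitors was -0.07 (95% interval -0.14 to -0.01) and was not called by edgeR at an adjusted p of 0.0587; over the alternatives the adjusted p ran from 0.025 to 0.131.

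Adam10, the main alpha-secretase and the sheddase of Notch and N-cadherin, had 206, 215 and 217 CPM in DMSO, 207, 203 and 211 with Y27632, and 184, 186 and 198 with blebbistatin. Blebbistatin lay below both other groups, while Y27632 overlapped DMSO. The log2 change was -0.17 (SE 0.038) with blebbistatin and -0.04 (95% interval -0.11 to 0.03) with Y27632. Blebbistatin against Y27632 gave -0.12 (95% interval -0.19 to -0.04). In that direct comparison edgeR called 4 of 6 members, 2 higher and 2 lower, where it called 52.4% of 15262 genes, 26.5% as higher and 25.8% as lower.

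**Figure D1:**
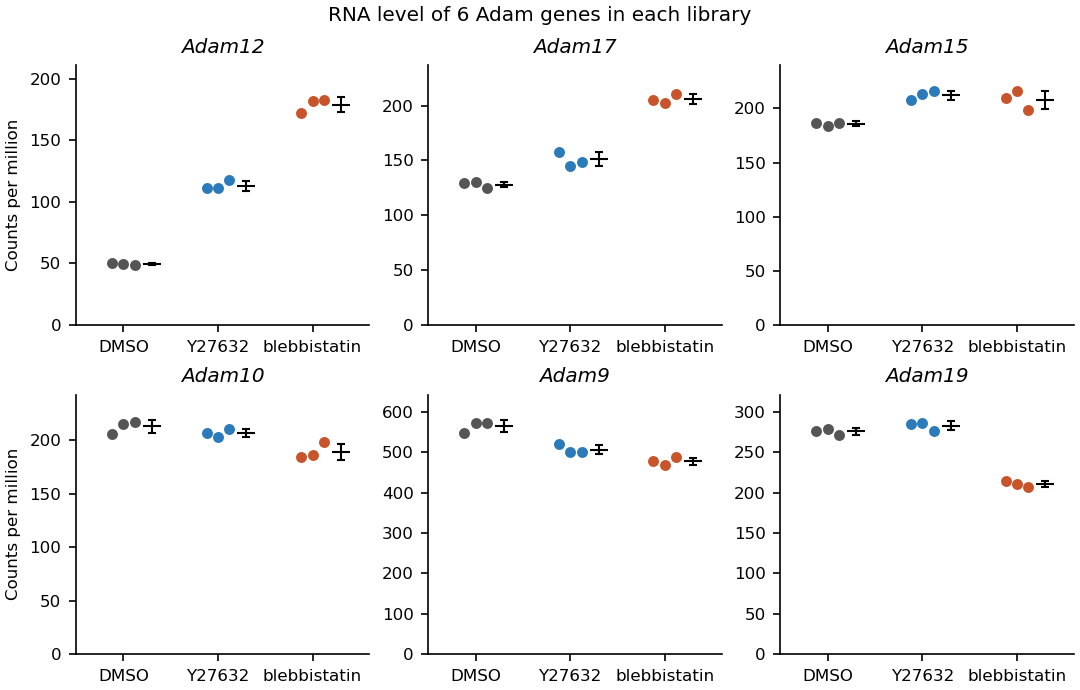
RNA level in CPM (y axis, linear from 0) of the 6 genes under DMSO, Y27632 and blebbistatin (x axis), with 1 point per library and the mean with its SD beside each group (n = 3). Adam12 climbs from about 49.2 CPM in DMSO to 113 with Y27632 and 179 with blebbistatin, while Adam19 is at 276 in DMSO, 283 with Y27632 and 211 with blebbistatin.

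**Figure D2:**
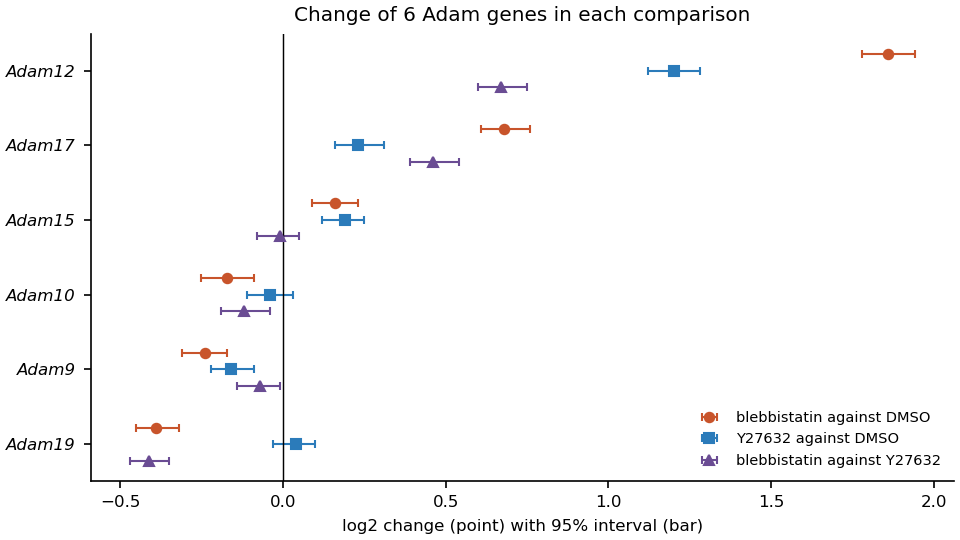
The log2 change (x axis) of each gene (y axis) for blebbistatin against DMSO, Y27632 against DMSO and blebbistatin against Y27632, with 95% intervals. The intervals of Adam10 and Adam19 under Y27632 and of Adam15 between the inhibitors include 0.

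The genes whose level ran most like each member over the 9 libraries were found by Pearson correlation among 11464 genes; the 9 points fall into 3 treatment groups, so the order of the groups enters each r. Nearest to Adam12 were the collagenase gene Mmp13 (r = 0.9973), with group means of 19.2, 119 and 272 CPM in DMSO, Y27632 and blebbistatin, and Btg1 (r = 0.996), with 72.1, 102 and 125. Adam17 ran with Vav3 and Pxylp1 (both r = 0.9957); Vav3 went from 6.94 CPM in DMSO to 11.9 and 30.6. For Adam19 they were Gnaq (r = 0.9949) and Bicc1 (r = 0.9946), the latter at 746, 758 and 357 CPM. Adam9 had Dynlt3 (r = 0.988) and LOC101055907 (r = 0.9879), Adam15 had Llgl1 (r = 0.9879) and Twist2 (r = 0.9771), and Adam10 had Dyrk2 (r = 0.9772) and Mpv17l (r = 0.9702).

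In chromatin, the authors' site lists hold group means and folds on a log2 scale without values per library, so they are described and not tested, and their depth is unknown. Of the 12 entries, 7 were annotated to Adam12, 3 to Adam19, 1 to Adam10 and 1 to Adam9, with none for Adam15 or Adam17. A site is counted once per list, and the counts are not divided by gene length, with Adam12 the longest of the 6 genes. The ATAC list of blebbistatin against DMSO held 970 sites, 953 of them lower. Its 1 member site was among the 17 higher ones: chr7:134163689-134164151 in intron 2 of Adam12, 61.2 kb from the start, went from 5.47 to 6.99, a log2 fold of 1.51 at an FDR of 0.0298. The list of blebbistatin without doxycycline, made from other libraries, held 1231 sites, 1219 of them lower, and contained an overlapping Adam12 site, chr7:134163877-134164006, which went from 4.39 to 5.47, a fold of 1.08 at an FDR of 0.0373. These lists shared 352 overlapping site pairs; 351 were lower in both and 1, this Adam12 site, was higher in both. A second Adam12 site in the same list, chr7:134177149-134177487 in intron 1 at 47.8 kb, went from 5.88 to 6.89, a fold of 1.01 at an FDR of 0.00691. The authors' TEAD motif column marked 603 of the 970 ATAC sites, 0 of the 17 higher ones and so not the Adam12 site. The Y27632 ATAC list, with 207 sites, held none annotated to the 6 genes, where over the 5 lists 12 of 16367 entries were. The lists hold only sites past the authors' thresholds, so absence from this list does not show unchanged chromatin.

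**Figure D3:**
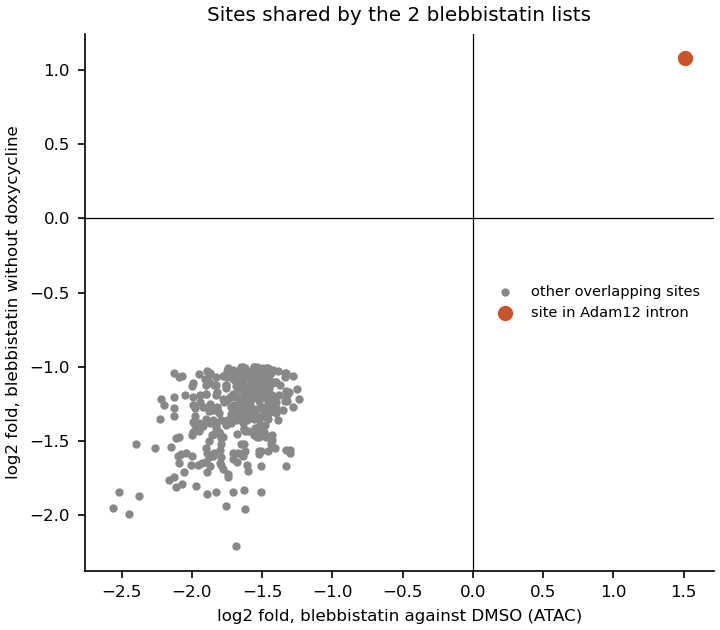
Log2 folds of the 352 overlapping site pairs in the ATAC list of blebbistatin against DMSO (x axis) and in the list of blebbistatin without doxycycline (y axis), 1 point per pair, from the authors' deposited values. The Adam12 intron site, at 1.51 and 1.08, is the 1 point above 0 on both axes; the lists hold only sites past the authors' thresholds.

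Under doxycycline the Adam12 entries went the other way. With doxycycline alone, chr7:134151429-134151629 in intron 2 of Adam12 had a fold of -1.02, in a list of 7613 sites of which 7297 were higher. Blebbistatin on top of doxycycline had 3 sites in Adam12 intron 3, chr7:134028527-134028709, chr7:134043719-134043963 and chr7:134032993-134033381, with folds of -1.0, -1.16 and -1.15, in a list of 6346 sites of which 6332 were lower. None of these 4 overlapped the sites that blebbistatin raised without doxycycline. In Adam19, 2 sites were higher with doxycycline. The site chr11:46055068-46055277, annotated to a promoter 671 bp from the start, went from 5.50 to 6.81, a fold of 1.31, and lies 516 and 456 bases from the 2 windows printed above. The site chr11:46121604-46121967 in intron 9 of Adam19 went from 6.25 to 7.25 with doxycycline, and in the list of both drugs from 7.25 to 6.18, a fold of -1.07; these lists share the doxycycline group. That list also held chr9:70731163-70731401 in intron 4 of Adam10 at a fold of -1.58 and chr8:24990234-24990443 in exon 11 of Adam9 at -1.09. RNA with doxycycline was not analysed here.

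**Figure D4:**
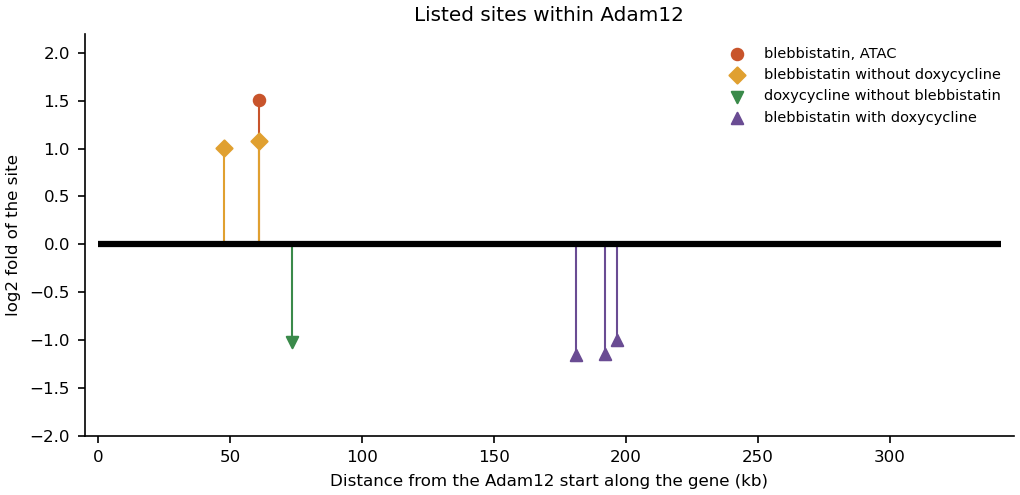
Log2 fold (y axis) of the 7 listed sites annotated to Adam12 against their distance from its start in kb (x axis; the black bar is the gene), coloured by the authors' list. The sites raised by blebbistatin without doxycycline lie at 47.8 and 61.2 kb, and the lowered ones at 73.6 to 196.5 kb.

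Of the other Adam genes, 14 were chosen by name and looked up, and 7 of these passed the filter on low counts. Blebbistatin raised 4 and lowered 1 of them, with a median log2 change of 0.30 against 0.002 over all genes. Y27632 raised 3 and lowered 1, with a median of -0.10 against 0.004. Over all genes tested, 26.1% were called higher and 26.9% lower with blebbistatin, and 18.1% and 17.8% with Y27632. Adam8, a sheddase mostly known from leukocytes, had 13.8, 13.4 and 15.3 CPM in DMSO, 24.8, 22.4 and 23 with Y27632, and 50.9, 45.1 and 39.3 with blebbistatin, the same order as Adam12. Its log2 change was 1.66 (SE 0.085) with blebbistatin and 0.72 (SE 0.066) with Y27632, and blebbistatin exceeded Y27632 by 0.95 (edgeR adjusted p = 1.84e-07). The 6 macrophage markers, which include Ptprc and Csf1r, were also higher in both inhibitor groups (6 of 6 called in each). Of all genes tested, 26.1% were called higher with blebbistatin and 18.1% with Y27632. The markers summed to 219 to 243 CPM in DMSO, 315 to 357 with blebbistatin and 320 to 364 with Y27632. Between the inhibitors, where edgeR called 52.4% of all genes, 0 of the 6 markers were called by edgeR, DESeq2 or limma. Of these markers 0 had an unadjusted p under 0.05 there, with log2 differences of -0.09 to 0.11 by edgeR. Their part in the Adam8 values was not tested. Adam11, a catalytically inactive relative, rose with blebbistatin by 0.88 (SE 0.088) and gave -0.13 (SE 0.129) with Y27632, a difference of 0.99 (edgeR adjusted p = 2.85e-06). Adam33 fell by 0.23 under each, Adam23 rose by 0.30 and 0.20, and Adamdec1 was higher by 0.50 and 0.37 on 66 to 94.2 normalised counts. The Adamdec1 calls were lost with DESeq2 (adjusted p = 0.0542 with blebbistatin and 0.19 with Y27632), and without blebbistatin replicate 1 the change with blebbistatin was 0.42 (limma adjusted p = 0.0589). Adam22 and Adam1a were not called.

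The inhibitors of these enzymes moved in both directions. Timp3, the matrix-bound TIMP that blocks ADAM17 and ADAM10, fell from 439, 428 and 441 CPM in DMSO to 358, 369 and 370 with Y27632 and to 170, 176 and 173 with blebbistatin. The groups did not overlap, and the log2 change was -1.34 (SE 0.029; limma adjusted p = 7.1e-12) with blebbistatin and -0.26 (SE 0.029) with Y27632. Adam17 was highest in the group where Timp3 was lowest. Timp1 fell by 0.31 with each inhibitor and Timp2 rose by 0.24 with blebbistatin and 0.29 with Y27632. Reck, a membrane-anchored inhibitor, fell by 0.31 with blebbistatin and by 0.11 with Y27632, the latter not called by DESeq2 (adjusted p = 0.104). The Y27632 call of Reck was also lost without DMSO replicate 1 or 2 and without Y27632 replicate 1 or 2 (limma adjusted p = 0.0549 to 0.095). Timp4 went from 1.81 ± 1.73 to 27.65 ± 6.11 normalised counts (SD, n = 3) with blebbistatin; it passed the filter through that group alone, so no fold is given.

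Of 19 genes for maturation and partners of ADAM proteins, 17 were tested. With blebbistatin 13 were called (8 higher, 5 lower, median 0.05), where 53% of all genes tested were called. With Y27632 8 were called (6 higher, 2 lower, median 0.03), where 35.9% of all genes tested were called. The scaffold genes Sh3pxd2b and Sh3pxd2a, encoding the Tks4 and Tks5 adaptors of invadopodia, rose by 1.45 (SE 0.052) and 0.91 (SE 0.067) with blebbistatin and by 0.80 and 0.23 with Y27632. The Sh3pxd2a groups overlapped under Y27632, and the call there was lost with DESeq2 (adjusted p = 0.0978). It was also lost without Y27632 replicate 2 or 3 (limma adjusted p = 0.0523 and 0.0621). Snx9, a sorting nexin that binds ADAM cytoplasmic tails, rose by 0.77 and 0.63. The iRhoms escort ADAM17 to the cell surface. Rhbdf1, for iRhom1, fell by 0.38 with blebbistatin and gave 0.02 (SE 0.032) with Y27632, and the difference of -0.39 was called by edgeR (adjusted p = 2.84e-07). Rhbdf2, for iRhom2, and the iRhom-binding Frmd8, both named after their values were seen, rose with blebbistatin by 0.76 (SE 0.078) and 0.66 (SE 0.044), against 0.08 (SE 0.081) and 0.34 with Y27632. The convertase gene Pcsk6 fell by 0.53 with blebbistatin and gave -0.09 with Y27632. Tspan17, for an ADAM10-binding tetraspanin, fell by 0.20 and 0.22. Of the other listed tetraspanin genes, named after their values were seen, Tspan5 and Tspan14 were called higher with blebbistatin, by 0.11 and 0.17. With Y27632 they gave 0.04 and -0.04, not called. Tspan15 gave 0.03 and -0.20, not called, and Tspan10 and Tspan33 were not tested. Sh3d19 fell by 0.25 with Y27632 and gave -0.07 with blebbistatin.

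Among 8 genes for EGF-type ligands that ADAM17 and its relatives release, Hbegf, Ereg, Nrg1 and Tgfa differed between the inhibitors. Of the 8, 6 were tested. Blebbistatin lowered 2 and raised 0 (median -0.15), where 26.9% of all genes were called lower. Y27632 raised 2 and lowered 0 (median 0.15), where 18.1% of all genes were called higher. By edgeR, Hbegf, Ereg, Nrg1 and Tgfa were lower with blebbistatin than with Y27632, a direction in which 25.8% of all genes were called. Btc and Egf were not called in that comparison. Hbegf had 17.7, 15.8 and 17.6 CPM in DMSO, 62.3, 52 and 63.2 with Y27632, and 17.8, 19.3 and 20.5 with blebbistatin. The Y27632 libraries thus stood apart from all others, with a log2 change of 1.79 (SE 0.073; limma adjusted p = 3.1e-09). Ereg, for epiregulin, showed the same order, 9.79, 8.17 and 9.79 in DMSO, 33.1, 24.3 and 37.9 with Y27632, and 8.67, 7.71 and 8.59 CPM with blebbistatin. Nrg1, for the neuregulin that ADAM19 and others cut, was at 21.7, 19.2 and 19.7 CPM in DMSO, 20.5, 17.9 and 18.8 with Y27632, and 6.68, 6.83 and 5.83 with blebbistatin. Nrg1 and Adam19 were thus both lower with blebbistatin than with Y27632, by 1.55 and 0.41 on the log2 scale.

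In the Notch pathway 15 of 20 genes were tested, with 7 called under blebbistatin (4 higher, 3 lower, median 0.06) and 8 under Y27632 (5 higher, 3 lower, median 0.04). Over all genes tested, 53% were called under blebbistatin and 35.9% under Y27632. Of 4 ligand genes, the 2 tested fell under both inhibitors, Dll1 by 1.30 and 0.98 and Jag1 by 1.09 and 0.46, while Dll4 and Jag2 did not pass the filter on low counts. Notch3 rose by 0.59 with blebbistatin and gave -0.17 (SE 0.108) with Y27632. Aph1c, a gamma-secretase subunit gene, rose by 0.45 and 0.52. The target gene Hes1 stood at 6.39, 6.26 and 6.8 CPM in DMSO, 20, 19.3 and 22.1 with Y27632, and 7.03, 6.37 and 6.9 with blebbistatin, so that Y27632 alone stood out. Hey1, another target named after its values were seen, had 6.05 ± 2.43 normalised counts in DMSO and 22.58 ± 8.24 with blebbistatin, and, scaled with the Y27632 libraries, 6.29 ± 2.53 in DMSO and 22.8 ± 2.89 with Y27632 (SD, n = 3). It passed the filter through the treated groups alone and is among the higher calls counted above, so no fold is given. The other listed target genes, Hey2, Heyl and Nrarp, also named after their values were seen, did not pass the filter and were not tested. Hey2 went the other way from Hey1 with blebbistatin, from 7.9, 14.3 and 8.0 normalised counts in DMSO to 1.0, 4.1 and 1.8. With Y27632 the Hey2 libraries overlapped DMSO. Heyl and Nrarp, also at low counts, overlapped DMSO under both inhibitors.

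Of 28 other genes for substrates of ADAM proteases, mostly membrane proteins, 27 were tested under blebbistatin and 20 called (11 higher, 9 lower, median 0.01). All 28 were tested under Y27632 and 17 called (12 higher, 5 lower, median 0.09). The shares called over all genes tested were 53% under blebbistatin and 35.9% under Y27632. Igfbp5, for a secreted IGF-binding protein cut by ADAM proteases, rose by 1.15 (SE 0.056) and 1.22 (SE 0.045). Csf1, the macrophage growth factor, fell by 1.13 (SE 0.033) with blebbistatin and by 0.20 with Y27632, and the collagen receptor Ddr1 fell by 0.93 and 0.40. Il6ra rose by 0.78 (SE 0.127) with blebbistatin and gave 0.17 with Y27632. Mertk, a receptor of phagocytes, rose by 0.63 and 0.62, beside the macrophage markers given above.

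**Figure D5:**
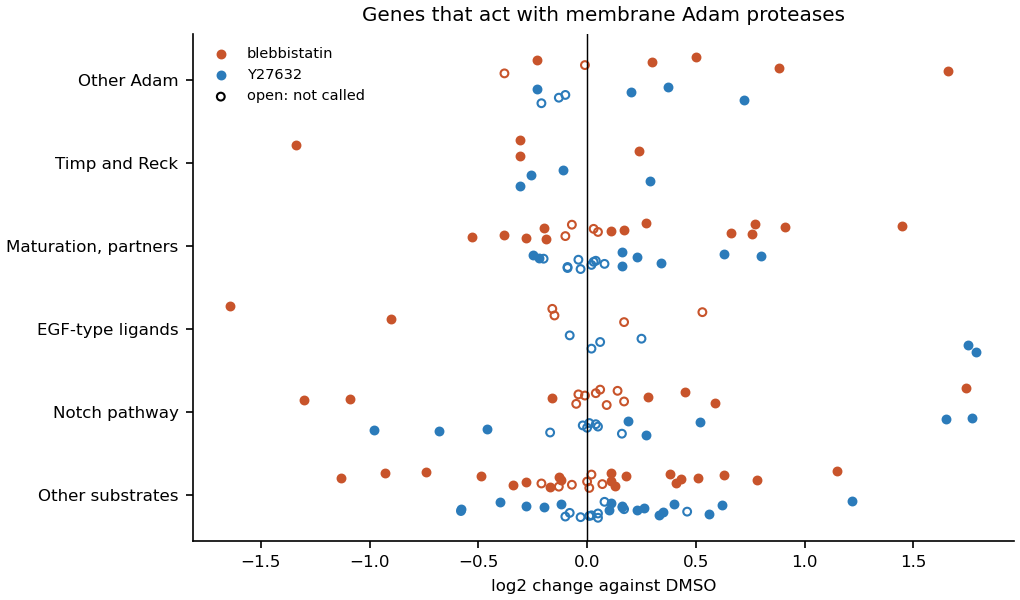
Log2 change against DMSO (x axis) of each tested gene in 6 lists (y axis) under blebbistatin and Y27632, with filled points for genes called at an adjusted p under 0.05. Timp4 is not drawn. Hey1 is drawn in the Notch list, although it passed the filter through the treated groups alone, and its points are not to be read as a fold. Timp3 at -1.34 and Sh3pxd2b at 1.45 are the extremes of their lists under blebbistatin, and the 2 EGF-type ligands at 1.75 and 1.79 belong to Y27632.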

How the data were processed

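Per gene and library, the authors deposited a signal: read counts over a size factor, scaled apart in each RNA table. Within 0.01 of a whole number, 100% of the values above 0 gave whole reads, and the DMSO reads differed in 0 of 35972 genes shared by the tables. The log2 fold and p-value columns that the authors deposited have DESeq2 column names, per the file headers, as has a test score that was not used. The base composition of sites, a fraction per the file headers, was not used either. The site lists hold log2 group means and folds, p-values and FDR values, per the file headers. The submitters' processing notes list HISAT2, Picard, featureCounts, DESeq2, Bowtie2, SAMtools, MACS2, DiffBind, HOMER and mm10 with no role or version; strand use and scaling between site libraries are not given in the sources used here. The reference column of the list for doxycycline alone carries the name of the group given blebbistatin without doxycycline. At 13 sites shared with another list it differed by -0.13 (SD 0.0044) from untreated cells and by 1.12 (SD 0.184) from the named group, and was read as the former.

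limma 3.58.1 (R 4.3.3, mean-variance trend) was run on log2(normalised count + 1) for genes averaging 10 or more normalised counts; this scale understates the change of low genes. For blebbistatin against Y27632, the reads of all 9 libraries entered the quasi-likelihood test of edgeR 4.0.16 with TMM scaling; DESeq2 1.42.0 was an alternative. Adjusted p-values are Benjamini-Hochberg values over all genes tested, called under 0.05. The scripts were tested on simulated data.

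The members and lists were chosen with earlier results of these data known. Named genes are the 6 members, every other Adam gene and inhibitor on the lists that passed the filter, and the 2 genes most like each member. Per other list, the 2 highest and 2 lowest called genes with a mean of at least 100 normalised counts are named. Sites are all those annotated to a member; sites overlap at 1 bp or more. Coordinates are those of the files, and promoter windows are from RefSeq, GRCm38.p6.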

Additional observations from a re-analysis of the deposited data

Results flagged for a closer look

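For 4 genes of shed membrane proteins outside the Adam family the inhibitors moved the RNA in opposite directions, with both changes called by limma and the difference between the inhibitors called by edgeR. Sdc4, for syndecan-4, changed by -0.28 with blebbistatin and 0.35 with Y27632, a difference of -0.62 (adjusted p = 3.85e-08). Tnfrsf1b, for TNF receptor 2, changed by -0.12 and 0.23, a difference of -0.33 (adjusted p = 5.45e-06), and its blebbistatin change was not called without DMSO replicate 1 (-0.09, adjusted p = 0.0882) or without blebbistatin replicate 3 (-0.09, adjusted p = 0.0874). Kitl, for stem cell factor, changed by -0.13 and 0.16, a difference of -0.28 (adjusted p = 7.42e-05). Cx3cl1, for the membrane chemokine fractalkine, went the other way, at 0.43 and -0.58, a difference of 1.04 (adjusted p = 1.21e-07). The 4 were singled out from all listed genes other than cell type markers by this opposition and by the called difference. The adjusted p-values were thus part of the choice and do not test the pattern. How many of all genes show the same pattern was not counted, and both contrasts share the DMSO libraries.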

How the results depend on the processing

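The number of members called stayed at 6 for blebbistatin and 4 for Y27632 against DMSO and at 4 to 5 between the inhibitors under other pseudocounts, no filter, edgeR, DESeq2 and each left-out library; scaling the 9 libraries together was an alternative chosen after seeing the data. Of 234 alternative values of the members, 227 kept their direction and side of the threshold, 6 brought Adam9 past it between the inhibitors, and 1 turned Adam15 there (0.005 without blebbistatin replicate 3, range -0.05 to 0.005). Of 1118 alternatives for other named genes, 23 lost and 3 gained a call and 4 turned: Adam22 with blebbistatin (-0.04 to 0.02 with a library left out, 0.002 with the 9 libraries scaled together) and Adam11 with Y27632 (-0.20 to 0.02, at 0.02 without Y27632 replicate 3). Adamdec1 with Y27632 was not called in most alternatives (adjusted p = 0.19 by DESeq2, 0.0561 to 0.117 with a library left out); the cause was not tested. Same-numbered libraries did not deviate together (r = -0.203 to 0.0885), so numbers were not taken as pairs. With the replicate as a block 7604 genes were called with blebbistatin, 4633 with Y27632 and 7759 between the inhibitors, against 7894, 5328 and 7990, and the members called were 6, 4 and 4; Reck (adjusted p = 0.063) and Adamdec1 (0.0689) lost their Y27632 calls. Of the 12 sites, 9 had an FDR under 0.01, which leaves out 3 Adam12 sites, both overlapping ones among them, and 9 lay within 100 kb of the start.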

Other observations

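Markers of other cell types varied between the treatments. The 5 endothelial markers summed to 119 to 121 CPM in DMSO, 107 to 114 with Y27632 and 75.4 to 84.5 with blebbistatin. That sum was mostly Tek, which fell by 0.63 with blebbistatin and by 0.14 with Y27632 on the log2 scale; Cdh5 gave 0.30 and 0.34 and Kdr 0.60 and 0.41, none called by limma, Pecam1 did not pass the filter, and Emcn was at 0 in DMSO. The 5 mural markers summed to 77.8 to 86.2, 86.8 to 107 and 88.2 to 100 CPM in the same order of groups. Most of it was Cspg4, with 2004 normalised counts in DMSO and 2354 with blebbistatin. With blebbistatin Rgs5 went from 94.0 to 64.4 and Kcnj8 from 4.29 to 0.62, while Mcam went from 58.3 to 71.3 and Myh11 from 16.2 to 21.2. The 4 Schwann cell markers summed to 7.32 to 9.04, 8.75 to 10.9 and 13.2 to 14.4 CPM. Epithelial markers summed to at most 0.758 CPM and skeletal muscle markers to at most 0.386 CPM, with Myod1 and Ckm at 0. In the list of both drugs, 1 further site within Adam12 and 1 within Adam19 were annotated by the authors to other genes.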
